A study of Mus musculus with 24 samples.

Results

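The 500 largest clusters of H3K27ac peaks in wild-type lung endothelial cells were chosen by size from the WT H3K27ac peak list. Peaks of at least 500 bp, 17579 of the 81112 listed, were stitched into 1 cluster wherever the gap between them was at most 12.5 kb. This gave 13945 clusters, ordered by the summed width of their peaks, and the first 500 (3.59%) were taken. They held 1756 of the wide peaks (9.99%) and 10.7% of the summed width, and their spans covered 9.87 Mb in all. Since WT H3K27ac set the choice, its values in these clusters are a description. The values of H3K4me1, H3K4me3 and H3K27me3 did not enter the choice.

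The cells were endothelial cells sorted by flow cytometry from mouse lung, and the marks were mapped with ACT-seq, in which an antibody carries a Tn5 transposase that cuts and tags the DNA where the antibody binds. The groups were Dnmt3a KO and WT mice, each with the marks H3K27ac, H3K4me1, H3K4me3 and H3K27me3, and the labels name 3 samples for each of the 8 groups. The processed data hold 1 peak list per group, with positions and widths in mm10 and no value per sample, so that no spread between replicates or sequencing depth is known and no test between genotypes could be run. The Cre or allele that removed Dnmt3a, the age and the sex of the mice are not given in the labels. The labels give the genotype of each sample only as KO or WT, and the gene is named in the description of the series.

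DNMT3A is a DNA methyltransferase that places methyl groups on unmethylated CpG sites. H3K27ac marks active enhancers and promoters, H3K4me1 marks enhancers and the flanks of promoters, H3K4me3 marks promoters, and H3K27me3 is laid down by the Polycomb system at silent genes. Enhancers with much H3K27ac often lie close together around genes that define a cell type, and such stretches are known as super-enhancers or stretch enhancers. The DNMT3 proteins have a domain that binds histone H3 where lysine 4 carries no methyl group, and H3K4me3 is therefore usually found on DNA without methylation.

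The promoters of 6 host genes are given as examples and do not cover the range of what the clusters contained. Each window runs from 250 bases before to 50 bases after an annotated start, is written 5′ to 3′ on the strand of the gene, and comes from RefSeq on GRCm38.p6 (mm10). Capitals mark matches on either strand to GGGNGGGG, a motif of KLF and SP factors, to AGATAA, a motif of GATA factors, or to the 5 other motifs that were searched. The windows are Notch1 at chr2:26503773-26504072 on the minus strand, Dll4 at chr2:119325534-119325833 on the plus strand and Cldn5 at chr16:18776597-18776896 on the plus strand, shown as 3 genes of endothelial identity. Vegfa at chr17:46032328-46032627 on the minus strand and Baz2a at chr10:128092533-128092832 on the plus strand are shown because H3K27ac was short or absent there in KO. Gimap5 at chr6:48745947-48746246 on the plus strand is shown because H3K4me3 was listed there in KO only.
Notch1: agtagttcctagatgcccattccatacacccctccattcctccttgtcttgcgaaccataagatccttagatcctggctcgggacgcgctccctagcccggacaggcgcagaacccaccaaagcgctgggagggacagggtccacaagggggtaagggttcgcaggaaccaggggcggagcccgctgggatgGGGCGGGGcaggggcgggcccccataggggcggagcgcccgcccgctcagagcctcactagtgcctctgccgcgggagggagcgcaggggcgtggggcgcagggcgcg
Dll4: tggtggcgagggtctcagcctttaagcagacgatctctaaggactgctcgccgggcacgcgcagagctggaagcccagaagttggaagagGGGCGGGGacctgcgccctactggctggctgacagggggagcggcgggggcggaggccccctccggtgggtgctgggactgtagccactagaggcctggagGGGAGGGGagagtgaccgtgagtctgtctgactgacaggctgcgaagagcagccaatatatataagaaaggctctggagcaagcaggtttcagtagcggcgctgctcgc
Cldn5: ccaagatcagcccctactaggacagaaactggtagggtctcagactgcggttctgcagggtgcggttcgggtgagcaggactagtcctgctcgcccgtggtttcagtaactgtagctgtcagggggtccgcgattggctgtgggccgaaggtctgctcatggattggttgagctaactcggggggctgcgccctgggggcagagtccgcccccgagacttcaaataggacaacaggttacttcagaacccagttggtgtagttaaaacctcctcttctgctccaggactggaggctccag
Vegfa: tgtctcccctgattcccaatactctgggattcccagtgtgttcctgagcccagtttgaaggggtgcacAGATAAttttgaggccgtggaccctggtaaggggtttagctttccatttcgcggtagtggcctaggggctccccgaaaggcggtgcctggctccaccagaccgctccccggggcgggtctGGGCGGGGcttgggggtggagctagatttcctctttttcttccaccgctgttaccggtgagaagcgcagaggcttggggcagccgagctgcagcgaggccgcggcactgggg
Baz2a: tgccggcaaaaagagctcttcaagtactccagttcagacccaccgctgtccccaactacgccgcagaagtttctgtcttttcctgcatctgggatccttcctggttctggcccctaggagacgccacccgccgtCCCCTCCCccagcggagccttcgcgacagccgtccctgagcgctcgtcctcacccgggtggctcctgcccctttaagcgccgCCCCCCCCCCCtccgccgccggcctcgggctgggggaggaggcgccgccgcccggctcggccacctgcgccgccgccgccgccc
Gimap5: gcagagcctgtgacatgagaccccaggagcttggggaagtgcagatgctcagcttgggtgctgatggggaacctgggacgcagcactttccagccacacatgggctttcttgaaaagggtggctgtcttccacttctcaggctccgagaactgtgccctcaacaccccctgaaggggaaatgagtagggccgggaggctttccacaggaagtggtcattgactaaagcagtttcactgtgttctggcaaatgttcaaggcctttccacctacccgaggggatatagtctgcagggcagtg
In the Notch1, Dll4 and Cldn5 windows, H3K27ac peaks covered all 300 bases in KO and all 300 in WT. H3K27me3 covered 181 bases in KO and 0 in WT at Notch1, and 300 in both at Dll4. At Cldn5 it covered 300 bases in KO and 220 in WT. In the Vegfa window H3K27ac covered 135 bases in KO and 300 in WT, while H3K4me3 covered 300 bases in KO and 167 in WT. In the Baz2a window H3K27ac covered 0 bases in KO and 300 in WT, and H3K4me3 covered 105 bases in KO and 0 in WT. In the Gimap5 window H3K4me3 covered 300 bases in KO and 0 in WT, with H3K27ac and H3K4me1 over all 300 bases in both genotypes. The Gimap5 window held 4 CpG sites, an observed over expected CpG ratio of 0.174, against 30 sites and a ratio of 0.85 in the Baz2a window.

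The clusters also contained 25 of the 1136 annotated miRNA genes, in 21 clusters, and 2 clusters held a group of 3 each. The cluster of rank 226, which overlaps Spaca6 on chromosome 17, contained Mir99b, Mirlet7e and Mir125a, 3 neighbouring genes. The cluster of rank 452, over Mcm7 on chromosome 5, contained Mir25, Mir93 and Mir106b, which lie in an intron of Mcm7. One mature miRNA of each gene is given from RefSeq, with its seed (bases 2 to 8) in capitals, because the seed groups miRNAs by the targets they can share.
mmu-miR-99b-5p: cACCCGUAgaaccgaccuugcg
mmu-let-7e-5p: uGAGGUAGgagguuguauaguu
mmu-miR-125a-5p: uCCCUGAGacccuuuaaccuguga
mmu-miR-25-3p: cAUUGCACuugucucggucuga
mmu-miR-93-5p: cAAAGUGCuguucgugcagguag
mmu-miR-106b-5p: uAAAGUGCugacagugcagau
Of these 6, mmu-miR-93-5p and mmu-miR-106b-5p share the seed AAAGUGC, and the other 4 differ in seed. Under H3K27ac peaks the Spaca6 cluster had 2498 bp in KO and 2935 bp in WT, and the Mcm7 cluster had 1987 bp in KO and 2434 bp in WT. H3K4me3 covered 2866 bp in KO and 2437 bp in WT at Spaca6, and 2583 bp in KO and 2209 bp in WT at Mcm7. Whether these miRNAs were made in the cells was not measured here.

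Most members were groups of a few wide peaks rather than single long peaks. The summed width ran from 2358 to 7160 bp with a median of 2854.5 bp, and the span from 2.4 to 61.1 kb with a median of 18.4 kb. Of the 500 clusters 4 consisted of 1 wide peak, 71 of 2, 202 of 3, 152 of 4, 49 of 5, and 22 of 6 to 9. Of all 13945 clusters, 81.2% were single peaks. The size order had no break at the limit. Just inside lay Slc35f5 with 2361 bp, Ncoa2 and Fbxl5 with 2360 bp each and Tns1 with 2358 bp, and just outside lay Gfm1, Kazn and Tcf7, also with 2358 bp, and Irf2 with 2353 bp. Tns1 and the 3 genes at the same width were ordered by chromosome alone.

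**Figure D1:**
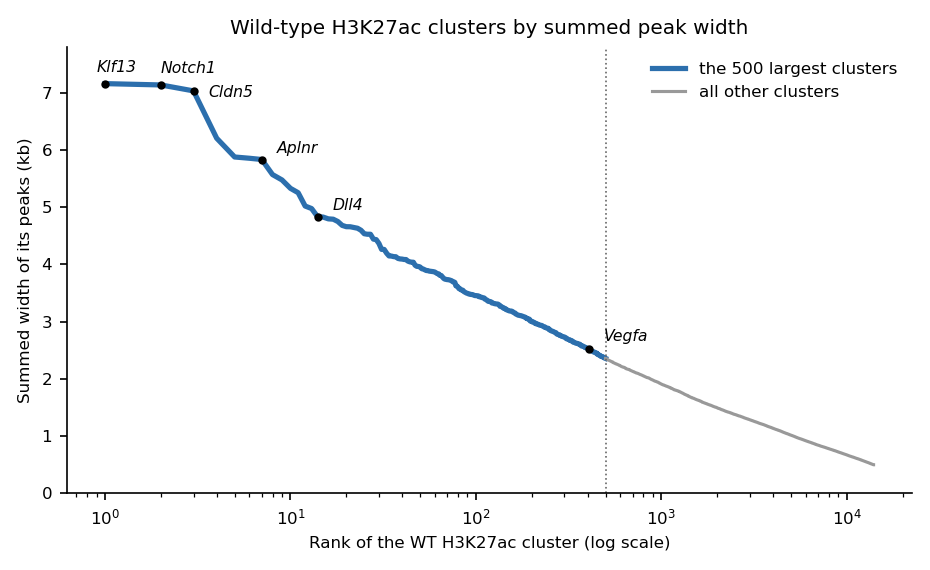
Summed width of the H3K27ac peaks of each stitched WT cluster (kb) against the rank of the cluster (log scale), with 6 host genes labelled and a dotted line at rank 500. The curve falls smoothly from 7160 bp at Klf13 through 2358 bp at the limit, without a step that would separate the 500 clusters from the others.

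The first cluster by rank was at Klf13, a zinc-finger transcription factor, followed by Notch1, the receptor that drives arterial specification, and Cldn5, the tight-junction claudin of endothelium. The Notch1 cluster, at chr2:26490492-26545077, held 9 wide peaks over 54.6 kb. Its H3K27ac covered 6776 bp in KO and 8415 bp in WT, and its H3K4me1 covered 10110 bp in KO and 7891 bp in WT. H3K4me3 at Notch1 covered 2500 bp in KO against 660 bp in WT, with 4 peaks in KO and 2 in WT. All 9 wide peaks of WT overlapped a KO peak, so the acetylated stretch was present in both lists while H3K4me3 was longer in the KO list.

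The Cldn5 cluster, at chr16:18720533-18777335, ended just past the start of the gene and ran upstream of it, over 56.8 kb in all. Its H3K27ac covered 5374 bp in KO and 7033 bp in WT, and its H3K4me1 covered 9078 bp in KO and 6576 bp in WT. H3K4me3 there covered 2285 bp in KO and 1226 bp in WT, and H3K27me3 covered 2235 bp in KO and 1173 bp in WT. All 4 marks were thus listed in both genotypes, and only H3K27ac was shorter in KO. At Dll4, the Notch ligand of arterial and tip cells (chr2:119299777-119338263, rank 14), H3K27ac covered 4676 bp in KO and 5798 bp in WT, and H3K4me3 covered 3287 bp in KO and 2009 bp in WT. At Aplnr, the apelin receptor of general capillary cells (chr2:85129260-85172712, rank 7), H3K27ac covered 4745 bp in KO and 6191 bp in WT, and H3K4me3 covered 2492 bp in KO and 2130 bp in WT. In these 4 clusters each wide H3K27ac peak of WT had a KO peak in its place.

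**Figure D2:**
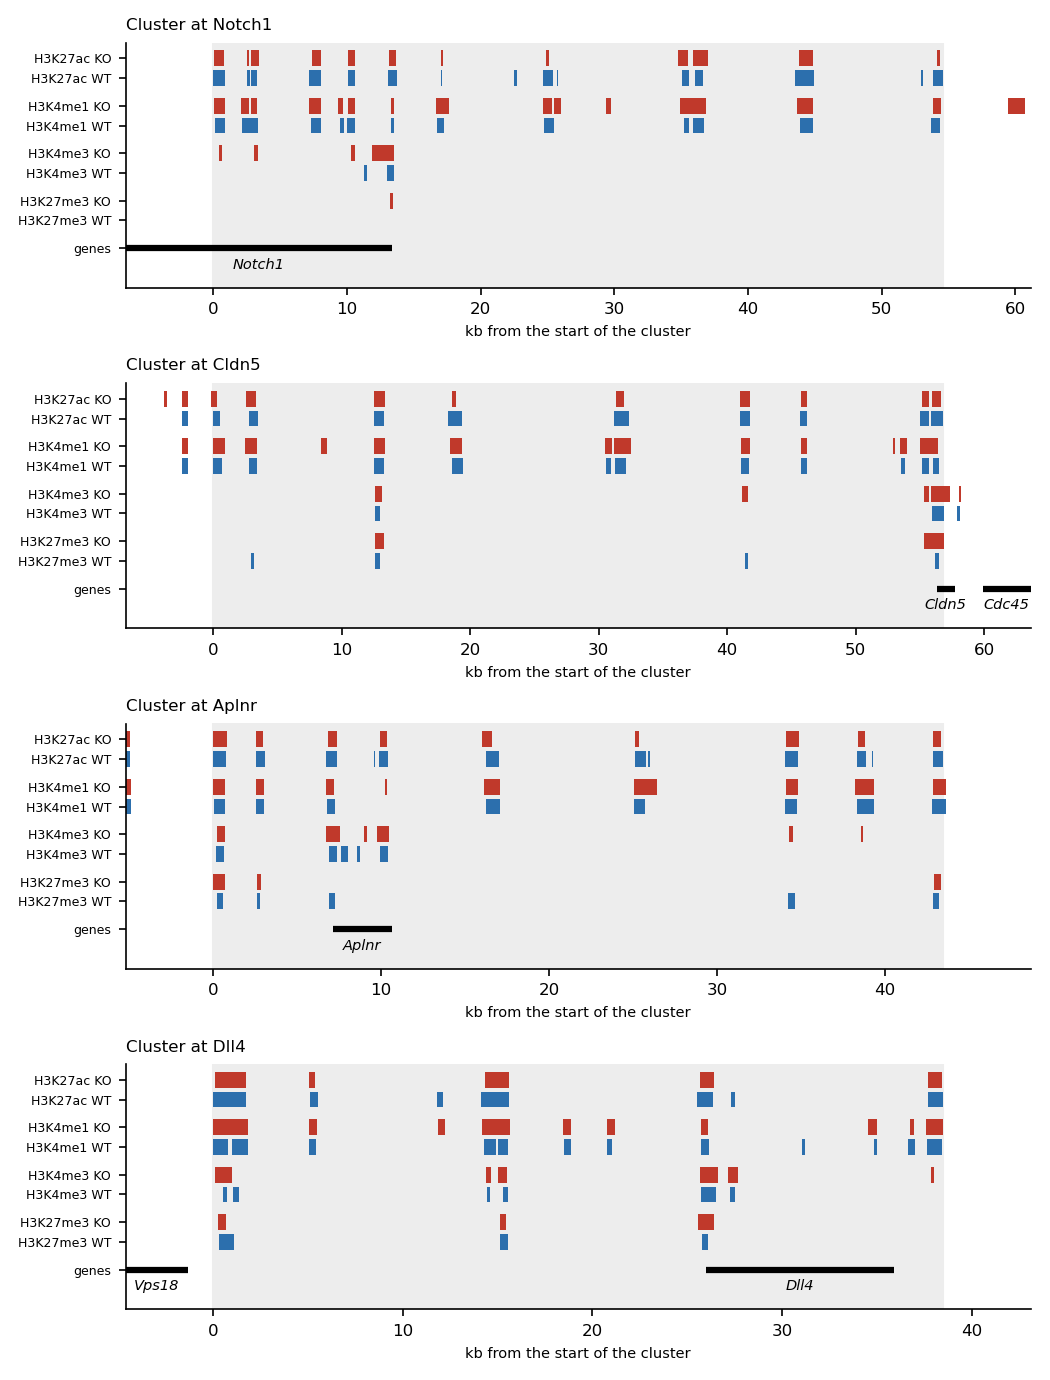
Peaks of the 4 marks in KO (red, upper track of each pair) and WT (blue, lower track) at the clusters of Notch1, Cldn5, Aplnr and Dll4, in kb from the start of each cluster, with the span of the cluster shaded and genes as black bars. Most H3K27ac and H3K4me1 peaks of WT stand beside a KO peak, and H3K4me3 has 4 peaks in KO and 2 in WT inside both the Notch1 and the Cldn5 span.

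Of the first 20 clusters 17 overlapped a gene. Ehd2 (rank 4), an ATPase of caveolae, had 5583 bp of H3K27ac in KO and 6840 bp in WT. Prx (rank 8), a scaffold protein that marks aerocytes, the thin capillary cells of gas exchange, had 4579 bp in KO and 6421 bp in WT. Bcar1 (rank 10) and Pxn (rank 15), adaptors of focal adhesions, had 3514 bp and 3192 bp in KO, against 5881 bp and 5712 bp in WT. At rank 6, a cluster without a gene lay 45.1 kb from Tmem100, a gene of general capillary cells, with 6111 bp in KO and 7289 bp in WT. Of the first 20 clusters Smco4 (rank 13) alone had a longer H3K27ac coverage in KO, 7463 bp against 7178 bp in WT.

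A cluster's host genes were the protein-coding genes that its span overlapped, and the lead host was the one that overlapped most bases of its wide peaks. Overlap does not show that a gene is controlled by the cluster. Of 20665 protein-coding genes, 663 (3.21%) overlapped a member. A gene was present in 431 clusters (86.2%), against 84.4% of the next 500 clusters and 74.8% of all, and an outer end of a gene record, 5′ or 3′, lay within 1000 bp of 323 clusters (64.6%), against 61% and 47%. Starts of shorter transcripts inside a gene were not counted as gene ends, and 36 of the 177 clusters without a gene end (20.3%) held such an annotated start, among them Ccdc85c, Smco4 and Tjp1. The other 69 clusters lay between genes, at a median of 45.1 kb and at most 304 kb from the nearest one. Lead hosts were long genes, with a median length of 42.2 kb against 17.5 kb for all genes, and 10 genes hosted 2 members each, among them Bach2, Foxp1, Nfkb1, Prkce and Tns1.

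Most genes of endothelial identity were not hosts. All lists but the lymphatic and the 3 of other cell types stood above the 3.21% of all protein-coding genes, housekeeping genes with 11.5% included. The DNA methylation and chromatin list, with 3.45%, was close to that share. The 3.21% also counts genes away from any cluster, since 9347 of the 20665 genes overlapped a stitched WT cluster. Among transcription factors of endothelium 8 of 35 were hosts, namely Erg, Tal1, Gata2, Sox17, Sox18, Foxp1, Tcf4 and Irf1, and clusters between genes had Ets1 and Elk3 as the nearest gene. Of the pan-endothelial genes 6 of 29 were hosts, Cldn5, Ramp2, Adgrf5, Ptprb, Cav1 and Cav2. The Notch list gave 6 of 21, with Notch1, Dll4, Jag1, Maml2, Lfng and Nrarp, and the arterial list gave 5 of 18. The venous list gave 1 of 12 (Ephb4), aerocytes 1 of 17 (Prx), and the lymphatic list 0 of 11. The Notch list (28.6%) and the arterial list (27.8%) had the highest shares, and they share the hosts Notch1, Dll4 and Jag1.

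Signalling and cytoskeletal lists followed. Of regulators of small GTPases and actin 11 of 41 were hosts, among them Elmo1, Ptk2, Dock4, Dock9 and Bcar1, and of calcium and cyclic nucleotide signalling 7 of 30, among them Prkce, Pde4d and Gnas. Immediate early and shear genes gave 5 of 26 (Klf9, Fos, Junb, Ier3 and Zfp36l1), inflammatory genes 4 of 25 (Nfkb1, Irf1, Tnfrsf1a and Bst2), and junction genes 4 of 29 (Cldn5, Ocln, Tjp1 and Itga6). TGF-beta and BMP genes gave 2 of 33 (Acvrl1 and Smad7), VEGF and angiopoietin genes 2 of 16 (Vegfa and Ptprb), and DNA methylation and chromatin genes 1 of 29 (Kdm6b). Dnmt3a itself was not a host. The shares were not adjusted for gene length.

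The labelled cell type was set against marker genes. Of 15 endothelial markers 1, Cldn5, hosted a member, and of 9 leukocyte, 8 lung epithelial and 8 mural and fibroblast markers 0 did. With the wider lists, 0 of 24 leukocyte, 0 of 24 epithelial and 0 of 24 mural and fibroblast genes hosted a member. Any stitched WT cluster, large or small, overlapped 27 of 29 pan-endothelial genes, against 2 of 24 leukocyte, 4 of 24 epithelial and 4 of 24 mural and fibroblast genes. Of housekeeping genes 3 of 26 were hosts.

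**Figure D3:**
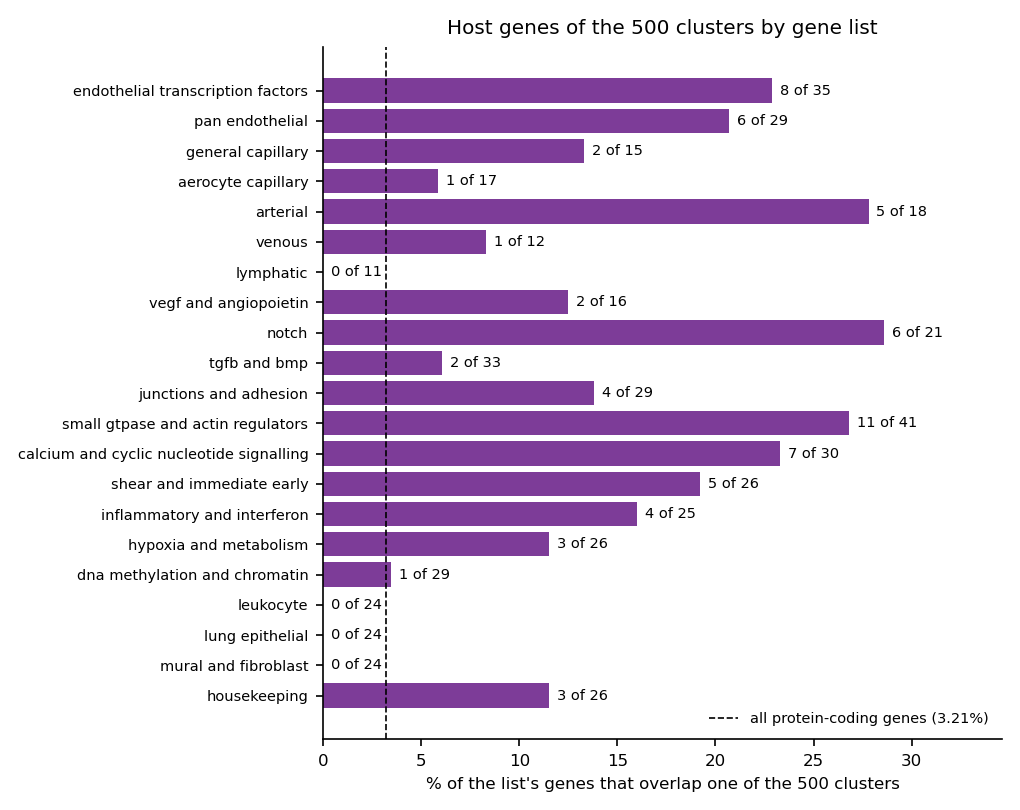
Share of the genes of each list that overlap 1 of the 500 clusters (%), with the number of genes beside each bar and the share of all protein-coding genes, 3.21%, as a dashed line. Notch, arterial and GTPase lists have the longest bars, and the lymphatic, leukocyte, epithelial and mural lists have none.

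Nearly every wide H3K27ac peak of the clusters was met by a KO peak. Of the 1756 wide WT peaks in members 1692 (96.4%, interval 95.4 to 97.2) overlapped a KO H3K27ac peak, against 15026 of 15823 (95%, 94.6 to 95.3) in the other clusters. Intervals are exact 95% intervals (Clopper-Pearson) that take each peak or cluster as independent, and they hold counting error alone. All wide peaks were kept in 444 clusters (88.8%), 1 was lost in 49 and 2 in 6, and no cluster lost all of them. The remaining cluster was that of Hjurp (rank 9), where 4 of 7 wide peaks were kept. Other clusters with few kept peaks were Baz2a (1 of 3), Ppm1a and Stk24 (1 of 2 each), and Erf and Sox13 (2 of 4 each).

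The width of kept peaks was compared next. The KO list covered a median of 84.9% of a kept wide peak in members and 84.3% in other clusters, and 1340 of the 1756 wide WT peaks in members (76.3%, 74.2 to 78.3) overlapped a KO peak that was itself at least 500 bp wide, against 72.5% (71.8 to 73.2) in other clusters. The WT peaks were chosen for their width, and a covered share has 100% as its upper limit, so these values cannot show wider peaks in KO. The share of peaks met climbed with their width. Of WT H3K27ac peaks inside members, 65 of 257 under 200 bp, 68 of 140 from 200 to under 300 bp and 126 of 162 from 300 to under 500 bp overlapped a KO peak. The count was 731 of 783 from 500 to under 750 bp, 366 of 367 from 1000 to under 1500 bp and 100 of 100 from 1500 bp upward. Under 200 bp, 124 of 482 WT peaks (25.7%) in the other clusters and 3309 of 36553 outside all clusters were met. The complete KO H3K27ac list was also the shorter one, with 44484 peaks against 81112 in WT, and the part of that difference in these values was not tested.

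**Figure D4:**
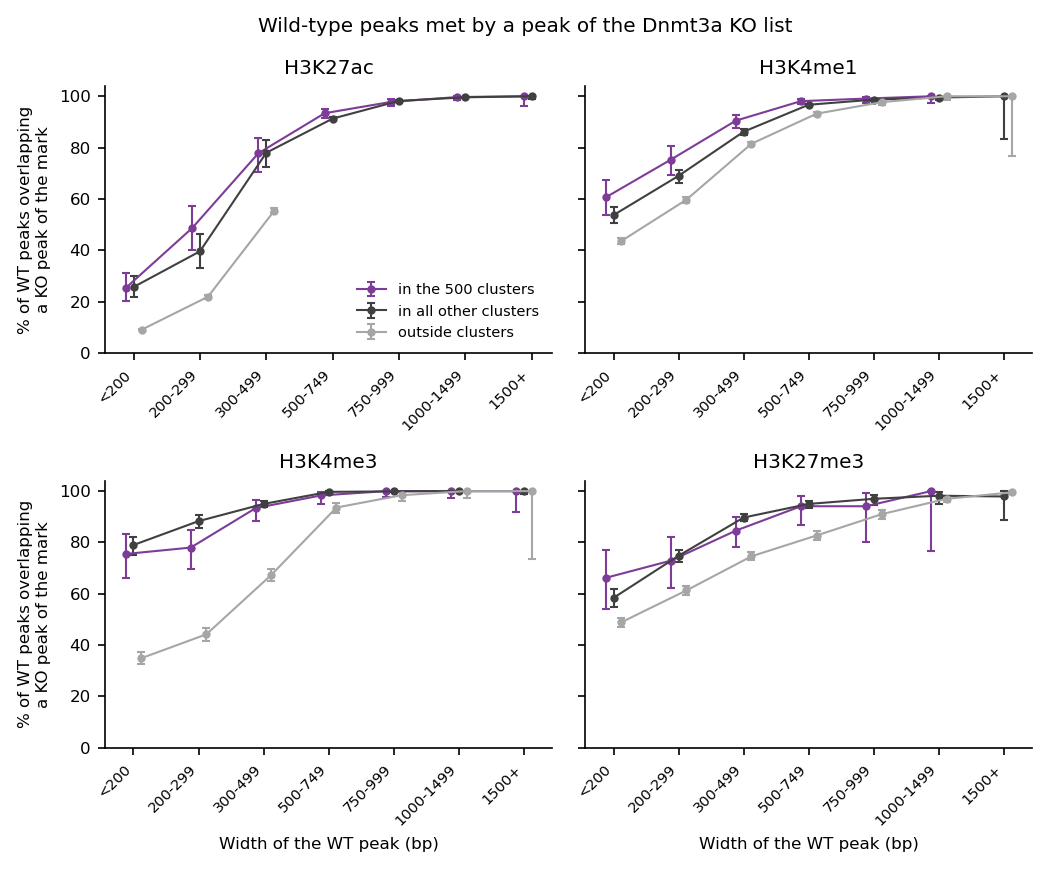
Share of WT peaks that overlap a KO peak of the same mark (%) by width of the WT peak (bp), inside the 500 clusters, inside all other stitched clusters and outside clusters, with exact 95% intervals and with classes under 10 peaks left out. For each mark the share is lowest under 200 bp and mostly climbs with width. For H3K27ac under 200 bp it is 25.3% inside the 500 clusters, 25.7% inside the other clusters and 9.05% outside clusters.

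A cluster's covered length was the number of bases under peaks of a mark between its first and last base, and clusters with at least 500 bp of the mark in either genotype were compared. A ratio of KO over WT of at least 1.5 counted as higher and of at most 0.667 as lower. By H3K27ac, 0 of 500 clusters were higher and 72 (14.4%, 11.4 to 17.8) were lower in KO. Of the next 500 clusters 0 were higher and 80 (16%, 12.9 to 19.5) were lower, with an interval that overlapped that of members. Of all stitched clusters 0.0359% were higher and 25.6% lower. The median ratio was 0.835 in members, 0.826 in the next 500 and 0.829 over all clusters. The sum over the members was 1.39 Mb in KO and 1.67 Mb in WT. Since WT H3K27ac chose the clusters, a ratio below 1 follows in part from the choice. When the same rule was run on the KO list, its 500 clusters had a median ratio of 1.1, with 47 higher and 2 lower.

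Large clusters of WT were often not among the largest of KO. Of the 500 members 251 (50.2%, 45.7 to 54.7) overlapped 1 of the 500 largest clusters of KO, and 253 of those (50.6%) overlapped a member. Among the first 20 the count was 17, among the first 100 it was 69, and among the last 100 it was 33. With the 250 largest of each list it was 120 of 250 (48%), and with the 1000 largest 565 of 1000 (56.5%). Some WT cluster, large or small, overlapped 497 of the 500 largest KO clusters. The WT size order had no break at the limit, so a small difference in width can move a cluster across it. The part of this in the count was not tested. Some KO cluster overlapped 498 of the members, and 72 were split into 2 or 3 KO clusters. Overlap with the KO 500 and splits were not counted for the next 500 or for all WT clusters. The 247 members that had only a smaller KO cluster reached a median KO rank of 1319, and 89 of them ranked within 1000. The 2 members without a KO cluster were Bad and Cobl, with 1025 bp and 2147 bp of H3K27ac in KO against 2806 bp and 3783 bp in WT, all under narrower peaks in KO.

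Rank and coverage could part widely. The Aplnr cluster, rank 7 in WT, was split into 3 in KO, the best of which ranked 6719 with 795 bp of wide peaks, because 3 of its KO peaks reached 500 bp. Its covered length in KO was nevertheless 0.766 of that in WT. The Cldn5 cluster was also split into 3, and its best KO rank was 1167. In the other direction Ptprb, the vascular endothelial protein tyrosine phosphatase, stood at rank 28 in WT and 2 in KO, with 5561 bp of H3K27ac in KO and 5702 bp in WT. Klf13 stood at rank 9 in KO, Map4k3 at 5 and Smco4 at 4.

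The lowest H3K27ac ratios were found at Adora2a, Baz2a, Bad, Arhgap11a and Vegfa. Adora2a, an adenosine receptor, had 826 bp in KO and 2364 bp in WT. Vegfa, the endothelial growth factor, had 1203 bp in KO and 2740 bp in WT, and 2 of its 3 wide peaks were kept. Baz2a, a subunit of a nucleolar remodelling complex, had 1212 bp in KO and 3461 bp in WT, as its promoter window above shows. H3K4me1 was not short at Adora2a, with 2409 bp in KO and 2306 bp in WT, nor at Vegfa, with 2257 bp in KO and 1712 bp in WT. In the Arhgap11a promoter window, however, it covered 0 bases in KO and 300 in WT. In the Baz2a window it covered 0 in both. Of the 2 Bad windows 1 had 0 in both and the other 246 in KO and 258 in WT. The highest ratios were at Rnf217 (4928 bp in KO, 3287 bp in WT), Hspa4 (3450 bp in KO, 2418 bp in WT) and Irf1 (3326 bp in KO, 2462 bp in WT). Irf1 encodes a transcription factor of the interferon response.

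Endothelial transcription factors were hosts of 9 clusters. Of these 0 were lower past 1.5-fold, against 14.4% of all members, and 7 lay in the KO 500, against 50.2% of all members. Erg had 3472 bp in KO and 4184 bp in WT, Tal1 had 3614 bp in KO and 4199 bp in WT, and Sox18 had 3774 bp in KO and 4040 bp in WT. Gata2 had 2163 bp in KO and 3084 bp in WT, and Sox17 had 2270 bp in KO and 2844 bp in WT. Among pan-endothelial hosts Ramp2, which carries adrenomedullin receptors to the surface, was the 1 of 6 that was lower, with 2316 bp in KO and 4105 bp in WT. Cav1 and Cav2, the caveolins, had 2362 bp and 4586 bp in KO, against 2887 bp and 5323 bp in WT.

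H3K4me1 was kept at close to its WT length or longer in most clusters. Of 494 clusters compared 38 (7.69%, 5.5 to 10.4) were higher and 14 (2.83%, 1.56 to 4.71) were lower in KO, against 8.62% higher and 9.3% lower of all stitched clusters. The median ratio was 1.15 in members and 1.04 over all clusters, and the sum over members was 1.4 Mb in KO and 1.21 Mb in WT. The numbers of peaks in the complete H3K4me1 lists were close, 48458 in KO and 49363 in WT. All 14 lower clusters held a gene end (4.42% of those compared), and 0 of the 177 clusters without one were lower. Over all stitched clusters the shares were 17.5% with and 3.53% without a gene end. The highest ratios were at Rgmb, a BMP co-receptor, with 3556 bp in KO and 1577 bp in WT, Bloc1s5 with 2483 bp in KO and 1181 bp in WT, and Gimap5 with 2258 bp in KO and 1079 bp in WT. Among clusters with at least 2000 bp of the mark, the lowest were Trim7 with 1263 bp in KO and 2254 bp in WT, and Junb, an AP-1 subunit, with 1447 bp in KO and 2020 bp in WT. The direction turned with the stitching gap: with a gap of 5000 bp 32 clusters were higher and 65 lower, and with 1000 bp 40 were higher and 86 lower. At a fold of 2, 7 were higher and 7 lower.

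H3K4me3 was longer in KO in many of these clusters. Of 429 clusters compared 193 (45%, 40.2 to 49.8) were higher and 2 (0.466%) were lower in KO, against 22.9% higher and 0.844% lower of all stitched clusters and 33% higher of the next 500. The median ratio was 1.39 in members and 1.1 over all clusters, and the sum was 0.856 Mb in KO and 0.586 Mb in WT. H3K4me3 was listed in 480 members in KO and in 403 in WT, with 78 in KO only (15.6%) and 1 in WT only. The KO-only share was close to that of the next 500 (16.6%) and of all clusters (15.1%). A cluster can pass the minimum of 500 bp through KO alone, which fixes its call, and 43 of the 429 compared had no WT H3K4me3 and none lacked it in KO. Of the 386 compared clusters with the mark in both lists 150 (38.9%, 34 to 43.9) were higher, against 28.7% of the next 500 and 18.1% of all clusters. The 2 lower clusters were Prkce (rank 72), a protein kinase C, with 152 bp in KO and 680 bp in WT, and Pak4 (rank 90), a p21-activated kinase, with 251 bp in KO and 588 bp in WT, both named after their values were seen. Of the 500 clusters that the rule gave on the KO list 44.6% were higher. With a stitching gap of 5000 bp the share fell to 28.7% and with 1000 bp to 17.2% of the 500 clusters then chosen. The complete H3K4me3 lists held 22724 peaks in KO and 14984 in WT, and the part of that difference in these counts was not tested.

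**Figure D5:**
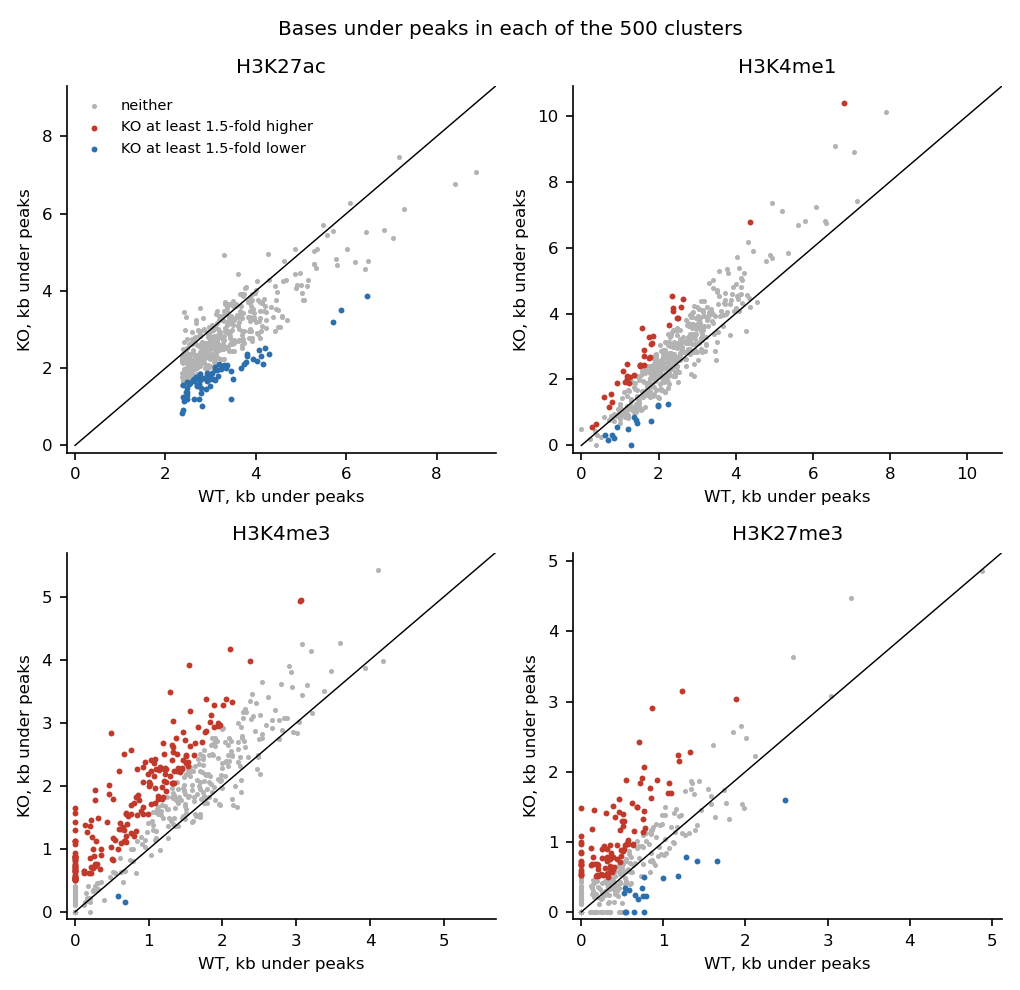
Bases under peaks (kb) of each mark in KO (vertical) against WT (horizontal) for each of the 500 clusters, coloured where KO is at least 1.5-fold higher (red) or lower (blue) with at least 500 bp in either genotype, with the line of equal length in black. H3K27ac points lie mostly below the line, H3K4me1 points around or above it, and H3K4me3 points above it, with 193 higher and 2 lower.

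The share higher by H3K4me3 differed with the presence of a gene end. Of the 115 compared clusters without a gene end 84 (73%, 64 to 80.9) were higher in KO, against 109 of 314 (34.7%, 29.5 to 40.3) with one. Over all stitched clusters the corresponding shares were 47.1% and 16.8%. Most clusters that passed the minimum through KO alone had no gene end. With H3K4me3 in both lists 47 of 78 (60.3%, 48.5 to 71.2) without a gene end and 103 of 308 (33.4%, 28.2 to 39) with one were higher. With annotated starts inside genes counted as gene ends too, these were 32 of 47 (68.1%, 52.9 to 80.9) and 118 of 339 (34.8%, 29.7 to 40.1). Summed H3K4me3 was 165 kb in KO and 80.8 kb in WT in members without a gene end, and 692 kb in KO and 505 kb in WT in those with one. Of the 97 members without WT H3K4me3, 85 had no gene end, and 78 had H3K4me3 in KO.

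The cases with no WT H3K4me3 and the most in KO were Plaur, the urokinase receptor gene, with 1652 bp in KO and 0 in WT, and the intergenic cluster nearest to Sgk1 (rank 20, 176 kb away), with 1563 bp in KO and 0 in WT. The clusters nearest to Stim2 and Jcad and the cluster over Mrps18a followed, with 1430 bp, 1133 bp and 1306 bp in KO and 0 in WT. Among endothelial genes, Podxl had 1120 bp in KO and 0 in WT in a cluster 23.5 kb away, and S1pr1, the sphingosine receptor of the endothelial barrier, had 1378 bp in KO and 139 bp in WT in a cluster 16.6 kb away. Clusters nearest to Kit, Ets1 and Elk3 had 393 bp, 556 bp and 514 bp in KO and 0 in WT. Bach2 had 1459 bp in KO and 215 bp in WT in its cluster of rank 17, and 2265 bp in KO and 2467 bp in WT in that of rank 71. Ptprb had 3919 bp in KO and 1550 bp in WT, and Adgrf5 had 2269 bp in KO and 840 bp in WT. Ptprb held the most KO-only H3K4me3 peaks of a cluster, 6.

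Clusters with more wide peaks were higher at a greater share. Of clusters with 1 or 2 wide peaks 15 of 69 (21.7%, 12.7 to 33.3) were higher by H3K4me3, against 37 of 64 (57.8%, 44.8 to 70.1) of those with 5 or more. Of clusters still among the 500 largest of KO 105 of 225 (46.7%, 40 to 53.4) were higher, and of the others 88 of 204 (43.1%, 36.2 to 50.2), with intervals that overlapped. By gene list, against 45% of all members, H3K4me3 was higher in 7 of 10 compared clusters at regulators of small GTPases and actin, 4 of 6 at pan-endothelial genes, 4 of 9 at endothelial transcription factors, 3 of 5 at Notch genes and 3 of 5 at inflammatory genes. It was higher in 3 of 7 at calcium and cyclic nucleotide genes, 2 of 5 each at arterial and at immediate early genes, 1 of 4 at junction genes, 1 of 3 at housekeeping genes and 0 of 2 at TGF-beta and BMP genes. The other lists had at most 3 compared clusters. Ptk2, the focal adhesion kinase, had 2011 bp in KO and 464 bp in WT, and Rapgef5, an exchange factor for Rap, had 867 bp in KO and 0 in WT. Tal1 had 3982 bp in KO and 2367 bp in WT, and Erg had 3654 bp in KO and 2537 bp in WT. Among clusters with at least 1000 bp, the lowest ratios were at the St3gal1 cluster of rank 454 with 1664 bp in KO and 2197 bp in WT, at Tmpo with 1703 bp in KO and 2143 bp in WT, and at Tjp1, a tight-junction scaffold, with 1908 bp in KO and 2245 bp in WT, none of them past 1.5-fold.

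Most KO-only H3K4me3 peaks lay on acetylated peaks. Members held 607 KO H3K4me3 peaks that overlapped no WT H3K4me3 peak (43.1% of KO peaks there, against 26.5% in other clusters and 71.7% outside clusters), with a median width of 258 bp and a greatest width of 1335 bp, against 68 WT-only peaks. KO H3K4me3 peaks were narrower in members, with a median of 476 bp against 747 bp in other clusters. Among peaks under 500 bp the KO-only share was 74.1% in members and 72.9% in other clusters. From 500 bp upward it was 9.87% and 5.95%. Of the 607 peaks 8.9% lay at a gene end, 79.9% on a wide WT H3K27ac peak, 86.8% on a KO H3K27ac peak and 85.7% on a WT H3K4me1 peak. Of the 10397 KO-only H3K4me3 peaks elsewhere 19.4% lay at a gene end, 25.8% on a wide WT H3K27ac peak and 49.5% on a WT H3K4me1 peak. A KO-only peak was present in 329 members (65.8%), against 44% of the next 500 and 18.8% of the other clusters. Larger clusters offer more peaks on which a KO-only peak can fall, and member spans were chosen for dense H3K27ac, so the overlap with H3K27ac follows in part from the choice.

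Counting peak by peak sets aside cluster size. Of the wide WT H3K27ac peaks away from gene ends and without WT H3K4me3, 407 of 927 in members (43.9%, 40.7 to 47.2) overlapped KO H3K4me3, against 220 of 564 (39%, 35 to 43.2) in the next 500 and 2000 of 6780 (29.5%, 28.4 to 30.6) in the other clusters. Wider peaks had higher shares, and members stood above the other clusters within each width class, with intervals that overlapped from 1000 bp upward. From 500 to under 750 bp the share was 40.8% (36.5 to 45.2) in members, 36.1% (30.7 to 41.7) in the next 500 and 25.4% (24.1 to 26.7) in other clusters. From 1000 to under 1500 bp it was 50.8% (41.9 to 59.6) in members, 44.3% (34.2 to 54.8) in the next 500 and 40.5% (36.6 to 44.6) in other clusters. With annotated starts inside genes left out too, the shares were 395 of 913 (43.3%) in members, 215 of 556 (38.7%) in the next 500 and 1953 of 6710 (29.1%) in other clusters. In the other direction 23 wide peaks of members away from gene ends had WT H3K4me3 only, beside 520 with H3K4me3 in neither list. The intervals of members and the next 500 overlapped in each of these classes.

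H3K27me3 was sparse in these clusters and its summed length was greater in KO. Of 228 clusters compared 103 (45.2%, 38.6 to 51.9) were higher and 19 (8.33%, 5.09 to 12.7) were lower in KO, against 31.3% higher and 9.56% lower of all stitched clusters and 40.1% higher of the next 500. Of those compared 16 had no WT H3K27me3 and 4 had none in KO, which fixed their calls. Among the 208 with the mark in both lists 87 (41.8%, 35 to 48.8) were higher and 15 (7.21%) lower. In the next 500 the shares were 35.6% (28.5 to 43.2) and 8.62%, and in all clusters 27% and 7.85%. The intervals of members and the next 500 for the share higher overlapped. The sum was 0.275 Mb in KO and 0.198 Mb in WT, and the mark was listed in 319 members in KO (63.8%) and 287 in WT (57.4%). Of the next 500 it was listed in 57.4% in KO and 55.4% in WT, and of all clusters in 44.6% and 42.8%. The complete lists held 31022 peaks in KO and 20918 in WT. Among clusters with at least 1000 bp of the mark, the highest ratios included Tspan4 with 1489 bp in KO and 0 in WT, Zbtb4 with 1084 bp in KO and 0 in WT, and Tnni1 with 1183 bp in KO and 130 bp in WT. The lowest were at a cluster nearest to Cd69 with 508 bp in KO and 1182 bp in WT, and at Gxylt2 with 731 bp in KO and 1650 bp in WT. Hoxa3, in the Hoxa locus that Polycomb regulates, had 784 bp in KO and 1277 bp in WT.

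H3K27me3 peaks of the clusters lay almost wholly on acetylated peaks. Of 534 KO H3K27me3 peaks in members 97.2% overlapped a KO H3K27ac peak, and of 454 WT peaks 98.7% overlapped a WT H3K27ac peak. Elsewhere the shares were 26.6% of KO peaks and 40.1% of WT peaks, and a higher share in members follows from their choice by H3K27ac. H3K27me3 and H3K27ac use the same lysine, so 1 histone tail can carry only 1 of them, and peak lists from many cells do not show which tails or cells carried which. Of KO H3K27me3 peaks in members, 94.1% of those shared with WT and 84.8% of the KO-only ones also lay on a KO H3K4me3 peak. Of the 15789 KO-only H3K27me3 peaks elsewhere 10.2% did, but 14537 of these lay outside all stitched clusters. The share in the other stitched clusters alone was not counted. Why peaks of these marks overlapped was not tested. Of the KO peaks in members 158 (29.6%) had no WT H3K27me3 peak under them, against 19.9% in other clusters and 60.1% outside clusters.

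Further hosts from the lists are given for several marks. Among Notch genes Jag1 had 2686 bp of H3K27ac in KO and 3091 bp in WT and 2744 bp of H3K4me3 in KO and 2493 bp in WT, and Maml2, a Notch coactivator, had no H3K4me3 in either genotype. Kdm6b, an H3K27 demethylase, had 1882 bp of H3K27ac in KO and 3020 bp in WT, while its H3K4me3 covered 2238 bp in KO and 600 bp in WT. Elmo1, a Rac activator, had 2904 bp of H3K27ac in KO and 4028 bp in WT, 4166 bp of H3K4me1 in KO and 2380 bp in WT, and 645 bp of H3K4me3 in KO and 0 in WT. Across clusters the ratios of the marks were weakly related, as a description. Spearman's rho was 0.18 between H3K4me1 and H3K4me3 (379 clusters), 0.056 between H3K27ac and H3K4me3 (386) and -0.0051 between H3K27ac and H3K4me1 (493), where each pair of ratios shares the same span.

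Promoter sequence was compared over 581 annotated promoter windows of 455 genes inside the clusters. A CpG ratio over 0.6 was found in 71.8% of them, against 83.1% of windows in other stitched clusters and 48.9% of 20085 windows in all. The motif GGGNGGGG was present in 55.8% of member windows, 52.4% in other clusters and 39.8% of all, and the ETS motif CCGGAAG in 14.8%, 21.7% and 11.9%. The AP-1 motif TGANTCA was present in 5.16%, 3.92% and 7.06%, AGATAA in 3.79%, 4.63% and 9.57%, the SOX motif ACAATGG in 1.72%, 1.78% and 2.87%, the FOX motif TGTTTAC in 1.55%, 2.48% and 3.04%, and TATAAA in 6.54%, 5.37% and 12.7%. All motifs were searched on both strands, and GGGNGGGG matches can overlap each other in runs of G. A match is a stretch of letters and not a bound site. At the 164 CpG-poor windows of members, a KO H3K4me3 peak without a WT one was found at 14 (8.54%), a WT peak without a KO one at 2, and both at 106. At the 417 CpG-rich windows these counts were 25 (6%), 4 and 382. In other clusters the share with a KO peak alone was 12.9% of CpG-poor and 3.74% of CpG-rich windows. Over all promoter windows the order was the reverse, with 5.01% of CpG-poor and 9.4% of CpG-rich windows.

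The cluster of rank 23, on chromosome 17 from 39843159 to 39848781, overlapped Rn18s-rs5, a pseudogene of 18S ribosomal RNA, and carried all 4 marks over the same bases. H3K27ac covered 4780 bp in KO and 4633 bp in WT, and H3K27me3 covered 4867 bp in KO and 4882 bp in WT. Bases under peaks of all 8 lists made up 60.7% of its WT H3K27ac length, against at most 38.7% in any other member. Ribosomal RNA genes have many near-identical copies, between which short reads cannot be told apart, so these values are uncertain. Without this cluster, left out after its values were seen, the H3K4me3 count was 193 of 428 higher and the H3K27ac count 72 of 499 lower.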

How the data were processed

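ACT-seq libraries of sorted mouse lung endothelial cells were described for 24 samples, 3 for each of 2 genotypes and 4 marks, with permeabilized yeast nuclei added to each cell suspension, per the labels' protocols. The files the authors deposited hold 1 peak list per genotype and mark, with chromosome, start, end and width of each peak, and no count, height or score per sample. Genotype and mark were taken from the names of the lists. The submitters' processing notes list MACS2 2.1.2.1, deepTools 3.1.1, SAMtools, Bowtie2 2.2.6, cutadapt 1.14 and Trim Galore 0.4.4, and the builds mm10 and R64. What each program did, the threshold for peaks, how yeast reads were used and whether lists pool samples is not given in the sources used here. Depth per sample is unknown, and a list from deeper or cleaner libraries can hold more and wider peaks. H3K9me3 was not analysed here.

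WT H3K27ac peaks of at least 500 bp were stitched over gaps of at most 12.5 kb and ordered by summed width, ties by chromosome and start. Peaks counted as overlapping from 1 bp. Covered length was compared where it reached 500 bp in either genotype, with calls at 1.5-fold. With 1 list per group there was no test. Genes, promoters and miRNAs came from RefSeq on GRCm38.p6. The members and gene lists were chosen with earlier results of these data known. Genes were named by a rule: the 20 largest clusters, the 5 highest and lowest ratios per mark (over at least 2000 bp of H3K27ac or H3K4me1, or 1000 bp of H3K4me3 or H3K27me3), the 5 with the fewest kept peaks, the 5 on each side of the limit, and hosts from the lists. Prkce and Pak4 as the lower H3K4me3 clusters, Hjurp for its lost peaks, Cobl, and the miRNA hosts Spaca6 and Mcm7 were singled out after their values were seen. Intervals are exact Clopper-Pearson intervals at 95%. Scripts used Python 3.11.15, numpy 2.4.6, pandas 2.3.3, scipy 1.17.1 and matplotlib 3.10.9, and were tested on simulated data. The gap, minimum width, order, peak set, number of clusters, fold and overlap were varied.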

Additional observations from a re-analysis of the deposited data

How the results depend on the processing

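Over 14 alternative settings 44 of 64 values kept their direction and stayed close to those reported, 18 moved and 2 reversed. With a stitching gap of 5000 bp H3K4me1 was higher in 32 clusters and lower in 65, and with 1000 bp higher in 40 and lower in 86, so its direction turned. H3K4me3 was then higher in 119 (28.7%) and 74 (17.2%). With no minimum width H3K4me1 was higher in 63. With peaks at gene ends left out H3K27me3 was higher in 51 (40.2% of 127), while the H3K4me3 share was 70.5%. The cause was not tested. Counts for the 250 largest clusters were 27 lower by H3K27ac, 13 higher by H3K4me1, 108 by H3K4me3 and 58 by H3K27me3, with 120 in the KO set. For the 1000 largest they were 152, 81, 319, 180 and 565, where the number of clusters sets the count. At a fold of 2 they were 10, 7, 112 and 68, and H3K4me1 was also lower in 7. When the longer list of each mark was cut to its widest peaks, as many as the shorter one holds, H3K4me3 was higher in 146 of 406 (36%). Leaving out the cluster over Rn18s-rs5, chosen after seeing the data, gave 72, 38, 193 and 103, and counting only clusters with the mark in both lists, also added after seeing the data, gave 72, 38, 150 and 87. The shares ran from 2 to 20.6% lower for H3K27ac, and higher from 1.42 to 12.6% for H3K4me1, 17.2 to 70.5% for H3K4me3 and 29.8 to 51.5% for H3K27me3. No paired analysis was possible because the files hold no values per sample, so that a replicate block and leaving out single replicates were not run. Without depth per sample, a missing peak cannot be told from one below the authors' threshold.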
